A study of Mus musculus with 8 samples.

Results

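The synaptic adhesion molecules of the adult mouse retina were read from the RNA-seq of 4 wild-type (WT) and 4 quadruple knockout (KO) samples. The genes were chosen by symbol, and 42 of the 18058 genes listed matched: neurexins, the neuroligins Nlgn1 to Nlgn3, Lrrtm1 to Lrrtm4, the contactins Cntn2 to Cntn6, the contactin-associated genes from Cntnap1 to Cntnap5c, Sdk1 and Sdk2, Dscam and Dscaml1, Slitrk1 to Slitrk6, Flrt1 to Flrt3, Clstn1 to Clstn3 and Cadm1 to Cadm4. The rule used symbols and no measured value, though it was set with earlier results of these data known, and it gave 11 families. The quadruple KO mice carry knockout alleles of 4 genes of the neural extracellular matrix, Bcan and Ncan for the proteoglycans brevican and neurocan and Tnc and Tnr for the glycoproteins tenascin-C and tenascin-R, and were made by breeding the 4 knockout lines together. The WT mice were of the inbred background strain 129S2/SvPasCrl, and whether any were littermates of the KO mice was not stated. The mice were adults of both sexes, the sex behind each library was not given, and retinae were pooled before RNA was extracted, without a statement of how many animals a pool held. The libraries are named A to D within each genotype. Whether they came from separate animals or litters was not stated, so the p-values measure only the spread between these libraries.

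Synaptic adhesion molecules are membrane proteins that join the presynaptic and the postsynaptic membrane and recruit receptors, channels and release machinery to the contact. Neurexins are their central presynaptic hub, and neuroligins and LRRTM proteins are among the postsynaptic ligands of neurexins. In the retina, sidekicks, DSCAM proteins and contactins are known for steering arbors of amacrine and ganglion cells to particular layers of the inner plexiform layer. The comparison asked whether retinae without the 4 matrix proteins differed from WT in the RNA of these families.

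The values are normalized counts, that is, estimated read counts per gene divided by factors of the authors that bring the libraries to a common depth. A gene was called when limma, fitted to log2(normalized count + 1) over all 17636 genes with a mean of at least 10, gave a Benjamini-Hochberg adjusted p under 0.05, and the fold changes are on that log2 scale. The estimated depth was 23.9 to 40.4 M reads in WT, lowest in WT B (23.9 M) and WT C (27.4 M), and 38.9 to 52.4 M reads in KO. Ncan lay between 569 and 789 normalized counts in WT and was at most 0.853 in KO. Bcan lay at 197 to 327 in WT against 11.5 to 22.1 in KO, and Tnr at 5578 to 6317 against 2374 to 2580. All 3 were called, whereas Tnc lay at 881 to 1592 in WT and at 1024 to 1249 in KO with an adjusted p of 0.826 in limma. For Tnc the paper reported a stretch of sequence missing in KO. Its western blots detected no tenascin-C protein in postnatal KO retina. The counts used here are of whole genes and do not show which part of a gene was read. WT B and WT C stood apart from the 6 other libraries. Their mitochondrially encoded mRNAs made up 0.341% to 0.402% of all normalized counts against 1.28% to 1.64% elsewhere, their signal recognition particle RNA 14.8% to 19.3% against 6.82% to 8.69%, and the first principal component, which set them apart, held 50.9% of the variance. The limma fit was therefore also made against WT A and WT D alone, with WT B and WT C left out. Permutation tests, overlaps between the genotypes and summed levels below used all WT libraries. Fold changes from WT A and WT D alone are given below for some genes only.

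All 42 genes were expressed above the minimum mean of 10 and were tested. To compare genes, normalized counts were divided by the kilobases of exons of each gene. On that scale the WT means ran from 1.86 for Cntnap5c to 10021 ± 1691 (SD, n = 4) for Clstn1, a calsyntenin that links transport vesicles to kinesin. Clstn1 was followed by Cadm3 at 1446 ± 86.9, a SynCAM protein of neurons, and by Nlgn2 at 1028 ± 53.9, the neuroligin of inhibitory synapses. No WT library of Nlgn2 reached one of Cadm3, and none of Cadm3 reached one of Clstn1. Of the 41 pairs of neighbours in the order of WT levels, 7 were separated in this way, and the other neighbours overlapped between WT libraries. Cadm4, next after Nlgn2 at 1021 ± 327, overlapped with Nlgn2 and with Cadm3, at 1362 in WT B against 1318 for Cadm3 in WT C. The places behind Clstn1 are therefore not settled. The calsyntenins made up 44.4% to 55.1% of the summed per-kilobase level of all 42 genes in WT and 43.8% to 46.6% in KO, and the SynCAM genes 18.0% to 19.5% and 18.8% to 19.3%.

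Within the other families the highest WT levels per kilobase belonged to Nrxn3 among the neurexins (928 ± 112), Dscaml1 of the DSCAM pair (571 ± 144) and Cntnap1 among the contactin-associated genes (527 ± 25.3). Cntnap1 encodes Caspr, an adhesion protein of the paranodes of myelinated axons. Cntn4 led the contactins at 249 ± 10.3, Slitrk2 the SLITRK genes at 237 ± 57.2, Flrt2 the FLRT genes at 144 ± 28.8, Sdk2 the sidekicks at 130 ± 23.5 and Lrrtm2 the LRRTM genes at 106 ± 24.0 (SD, n = 4 for each). The leaders of the SLITRK, FLRT, sidekick and LRRTM genes overlapped between WT libraries with another gene of their family, so their order is not settled. At the lower end stood Cntn3 at 12.2, Cntnap3 at 5.70 and Cntnap5c at 1.86 per kilobase, 3 genes whose WT libraries did not overlap with those of their neighbours in the order. Cntnap5a, Cntnap5b and Cntnap5c are related copies, and how reads common to them were divided rests on the authors' quantification.

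**Figure D1:**
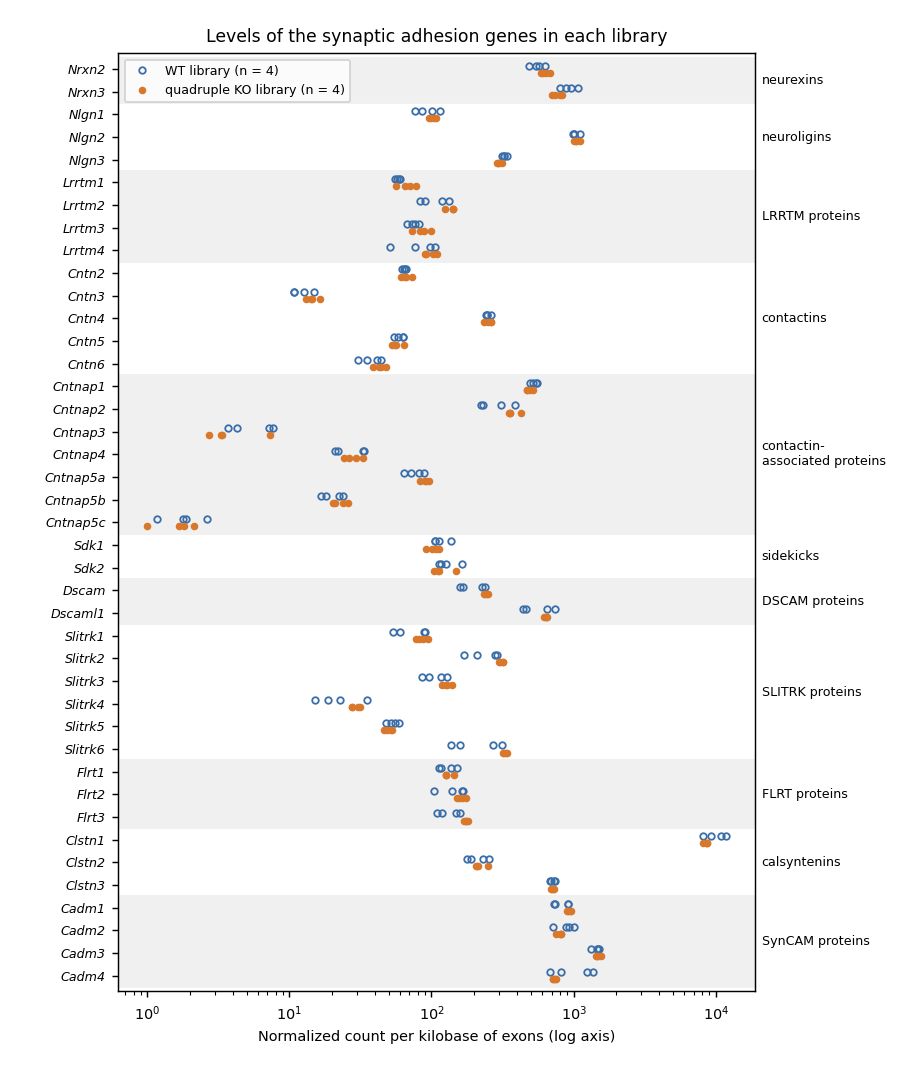
Normalized count per kilobase of exons (log axis) for 41 of the 42 genes, with an open blue circle for each of the 4 WT libraries and a filled orange circle for each of the 4 quadruple KO libraries. Clstn1 is farthest to the right with a WT mean of 10021 and Cntnap5c farthest to the left with 1.86, and the KO circles of Slitrk2, Slitrk6 and Flrt3 lie to the right of all their WT circles.

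The genes extend over long stretches of the genome. Their median span was 165 kb, from 5.36 kb for Slitrk1 to 2245 kb for Cntnap2, beside a median of 21.5 kb over all genes tested, and their median exonic length was 8.87 kb beside 5.52 kb. The SLITRK genes were compact, with spans of 5.36 to 12.6 kb, as were some members of other families such as Lrrtm2 with 6.07 kb.

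None of the 42 genes was called between the genotypes, and the lowest adjusted p among them was 0.301 in limma. Over all genes tested, 0.437% were called. Against WT A and WT D alone again 0 of 42 were called, beside 0.563% of all genes. At an unadjusted p under 0.05, 7 genes lay higher in KO (Flrt3, Slitrk6, Slitrk2, Lrrtm2, Cntnap2, Dscam and Slitrk3), beside 9.29% of all genes, and 1 lay lower (Nrxn3), beside 7.28%. These counts turned on single libraries, since leaving out each in turn gave 1 (without WT B) to 12 (without WT A) higher and 0 (without KO C or KO D) to 4 (without WT D) lower. In 3 genes, Flrt3, Slitrk6 and Slitrk2, every KO library exceeded every WT library, as in 6.16% of all genes. In 0 of 42 was every KO library under every WT library, against 3.58% of all genes.

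The median log2 fold change of the 42 genes was 0.09 and their range −0.48 (Cntnap3) to 0.66 (Slitrk6), beside a median near 0 over all genes, and 29 had a positive sign and 13 a negative one. With WT A and WT D only, the median was −0.02, with 18 positive and 24 negative signs, and 11 genes had turned in sign (Nlgn1, Lrrtm4, Cntn4, Cntnap4, Cntnap5b, Dscaml1, Slitrk1, Flrt1, Flrt2, Clstn2 and Cadm3). The 95% interval of the fold change lay within ±1 on the log2 scale for 40 of the 42 genes, the exceptions being Cntnap3 (−1.28 to 0.32) and Slitrk6 (0.12 to 1.21). It lay within ±0.5 for 25. With 4 libraries per genotype and this spread, the data do not tell apart the values inside an interval, and no detection limit was computed for single genes.

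**Figure D2:**
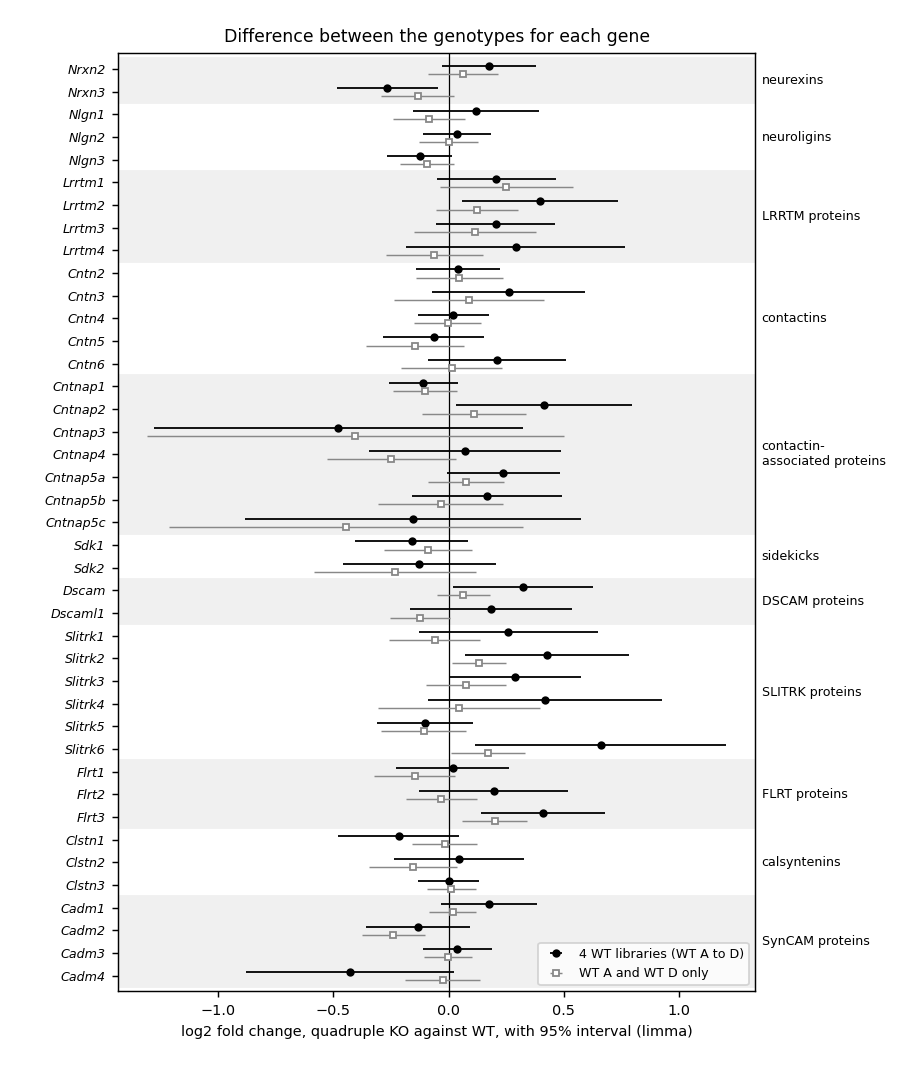
The log2 fold change of quadruple KO against WT for 41 of the 42 genes with its 95% interval from limma, from all 4 WT libraries (black circles) and from WT A and WT D only (grey open squares), in families. The black intervals of Flrt3, Slitrk2, Slitrk6, Lrrtm2, Cntnap2, Dscam and Slitrk3 lie to the right of 0 and that of Nrxn3 to the left. The squares of Flrt3, Slitrk2, Slitrk6 and Nrxn3 lie closer to 0, at 0.20, 0.13, 0.17 and −0.13.

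Nrxn3 was the neurexin with the most RNA and the gene with the smallest p among those lower in KO (ENSMUSG00000066392.13, chr12:88689646-90301709 in GRCm39, plus strand). Its normalized counts were 11155, 13533, 12139 and 10219 in WT A to D and 10198, 10513, 9341 and 8960 in KO A to D. The genotypes overlapped, since KO B exceeded WT D, and WT B and WT C were the highest libraries. The log2 fold change was −0.27 (SE 0.10, 95% interval −0.48 to −0.05, adjusted p = 0.301 in limma; two-sided exact permutation test p = 0.0571), and with WT A and WT D only it was −0.13 (interval −0.29 to 0.03). Nrxn2 lay at 7706 ± 846 normalized counts in WT and 8678 ± 572 in KO (SD, n = 4), with a log2 fold change of 0.18 (−0.03 to 0.38), opposite in sign to that of Nrxn3. The table counts whole genes, so the alpha and beta transcripts of the neurexins were not told apart.

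Nlgn2 and Nlgn3 varied little between WT libraries, with coefficients of variation of 5.24% and 3.90% beside a median of 16.7% over the 42 genes, whereas that of Nlgn1 was 17.7%. Nlgn2 lay at 6332 ± 332 normalized counts in WT and 6491 ± 260 in KO, with a log2 fold change of 0.04 (−0.11 to 0.18). Nlgn3, found at excitatory and inhibitory synapses, lay at 3027 ± 118 and 2774 ± 98.0 with −0.13 (−0.27 to 0.02), and Nlgn1, the neuroligin of excitatory synapses, at 1337 ± 237 and 1437 ± 66.7 with 0.12 (−0.15 to 0.39; SD, n = 4 throughout). None differed beyond the spread between libraries at the adjusted p of limma (0.312 to 0.751). Their summed level per kilobase was 1448 ± 69.1 in WT and 1454 ± 53.6 in KO.

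All 4 LRRTM genes, which encode leucine-rich postsynaptic ligands of neurexins, had positive fold changes of 0.20 to 0.40, and none was called. Lrrtm2 (ENSMUSG00000071862.4) had normalized counts of 725, 542, 503 and 808 in WT A to D and 758, 857, 858 and 862 in KO A to D. WT D lay above KO A, and WT B and WT C were well under the 6 other libraries. The log2 fold change of Lrrtm2 was 0.40 (SE 0.15, 0.06 to 0.74, adjusted p = 0.301 in limma; exact permutation p = 0.0571), and 0.12 (−0.06 to 0.30) with WT A and WT D only. Lrrtm1 kept a positive value of 0.25 (−0.04 to 0.54) there, Lrrtm3 one of 0.12 (−0.15 to 0.38), and Lrrtm4, an LRRTM of rod bipolar cell terminals, one of −0.06 (−0.27 to 0.15). With all 4 WT libraries Lrrtm4 had 0.29 (−0.18 to 0.77).

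The SLITRK and FLRT genes held the 3 members whose genotypes did not overlap. SLITRK proteins are postsynaptic partners of the receptor phosphatases PTPRS and PTPRD, and FLRT proteins bind latrophilins and UNC5 receptors. To show the regulatory sequence of such genes, the 250 bases before the transcription start of Flrt3 (chr2:140671477-140671726, minus strand) and of Slitrk6 (chr14:110755150-110755399, minus strand) are given here 5′ to 3′ from the RefSeq table of promoters, in its build GRCm38.p6, with matches to the motifs named below in capitals.
Flrt3: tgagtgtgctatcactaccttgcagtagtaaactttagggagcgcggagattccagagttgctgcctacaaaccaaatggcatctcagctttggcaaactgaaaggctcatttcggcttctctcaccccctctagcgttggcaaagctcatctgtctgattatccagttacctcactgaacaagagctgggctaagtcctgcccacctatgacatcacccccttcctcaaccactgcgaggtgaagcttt
Slitrk6: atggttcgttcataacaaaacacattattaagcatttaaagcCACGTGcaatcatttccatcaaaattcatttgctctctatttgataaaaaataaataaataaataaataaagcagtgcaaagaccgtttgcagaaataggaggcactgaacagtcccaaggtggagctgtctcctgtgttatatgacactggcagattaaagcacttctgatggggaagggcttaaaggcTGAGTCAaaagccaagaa
The TATA box as TATAAA, a box of the letters CCAAT, the GC box as GGGCGG, an E-box as CACGTG and an AP-1 site as TGAGTCA were looked for on both strands and were chosen after these sequences had been read. The Flrt3 stretch held none, and that of Slitrk6 held CACGTG, found in 6.02% of the 32841 promoter stretches of the same length, and TGAGTCA, found in 4.46%. The table matched 30 of the 42 genes, of which 3 held CACGTG and 2 TGAGTCA in any listed start, 1 held TATAAA (12.4% of all stretches), 10 CCAAT (33.9%) and 12 GGGCGG (32.7%). The GC content of the Slitrk6 stretch was 37.2%, beside a median of 52.4% over all stretches. A match describes the letters and is not evidence of a bound factor.

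Flrt3 had the smallest unadjusted p of the 42 genes (ENSMUSG00000051379.13, chr2:140492834-140513396 in GRCm39). Its normalized counts were 768, 578, 535 and 723 in WT A to D and 857, 885, 853 and 828 in KO A to D. Every KO library was above every WT library, and WT B and WT C were the lowest. Its log2 fold change was 0.41 (SE 0.12, 0.14 to 0.68, adjusted p = 0.301 in limma), and the two-sided exact permutation test gave p = 0.0286, the smallest p that 4 against 4 libraries allow. Any gene without overlap gets this permutation p, so for Flrt3, Slitrk6 and Slitrk2 it only restates the non-overlap. With WT A and WT D only the log2 fold change of Flrt3 was 0.20 (0.06 to 0.34), with an adjusted p of 0.298 in limma. Flrt2, known from starburst and direction-selective circuits of the inner retina, had 0.20 (−0.13 to 0.52) and Flrt1 had 0.02 (−0.23 to 0.26), neither beyond the spread between libraries. Both turned in sign with WT A and WT D only, to −0.03 (−0.18 to 0.12) for Flrt2 and −0.15 (−0.32 to 0.03) for Flrt1.

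Slitrk6, a gene known for the innervation of the inner ear, had the largest fold change of the set (ENSMUSG00000045871.6, chr14:110986012-110992584). Its normalized counts were 1144, 677, 579 and 1337 in WT A to D and 1363, 1417, 1347 and 1443 in KO A to D. The genotypes did not overlap, but WT D lay close under KO C, while WT B and WT C together averaged 50.6% of the mean of WT A and WT D. On the log2 scale, the fold change was 0.66 (SE 0.24, 0.12 to 1.21, adjusted p = 0.301 in limma; exact permutation p = 0.0286), and with WT A and WT D only it was 0.17 (0.01 to 0.33, adjusted p = 0.401).

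Slitrk2, the SLITRK gene of highest mean level per kilobase in WT, though overlapping with Slitrk6, gave 2358, 1784, 1428 and 2449 normalized counts in WT A to D and 2719, 2701, 2588 and 2527 in KO A to D (ENSMUSG00000036790.6, chrX:65692710-65704999). Here too no KO library reached down to a WT library, and the gap between WT D and KO D was small beside the distance of WT D from WT C. The log2 fold change of Slitrk2 was 0.43 (SE 0.16, 0.07 to 0.78, adjusted p = 0.301 in limma; exact permutation p = 0.0286), against 0.13 (0.01 to 0.25, adjusted p = 0.382) with WT A and WT D only. Slitrk3, a postsynaptic organizer of inhibitory synapses (ENSMUSG00000048304.9, chr3:72953166-72965342), gave 1049, 785, 703 and 951 in WT A to D and 1036, 1145, 1059 and 977 in KO A to D. WT A was above KO A and KO D, so the genotypes overlapped, and the log2 fold change was 0.29 (SE 0.13, 0.00 to 0.58, adjusted p = 0.301 in limma; exact permutation p = 0.0857). With WT A and WT D only, Slitrk3 had 0.08 (−0.10 to 0.25).

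Of the remaining SLITRK genes, Slitrk4 had a log2 fold change of 0.42 (−0.09 to 0.93), Slitrk1 of 0.26 (−0.13 to 0.65) and Slitrk5 of −0.10 (−0.31 to 0.11). With WT A and WT D only, these values were 0.04 (−0.31 to 0.40), −0.06 (−0.26 to 0.14) and −0.11 (−0.29 to 0.08), so that Slitrk1 turned in sign. Summed over the 6 genes, the SLITRK level per kilobase was 511 to 883 in the WT libraries and 919 to 965 in the KO libraries. The sums did not overlap between the genotypes, which is given as a description and carries no test. With WT A and WT D only, the median log2 fold change of the 6 genes was 0.06, against 0.35 with all 4 WT libraries.

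**Figure D3:**
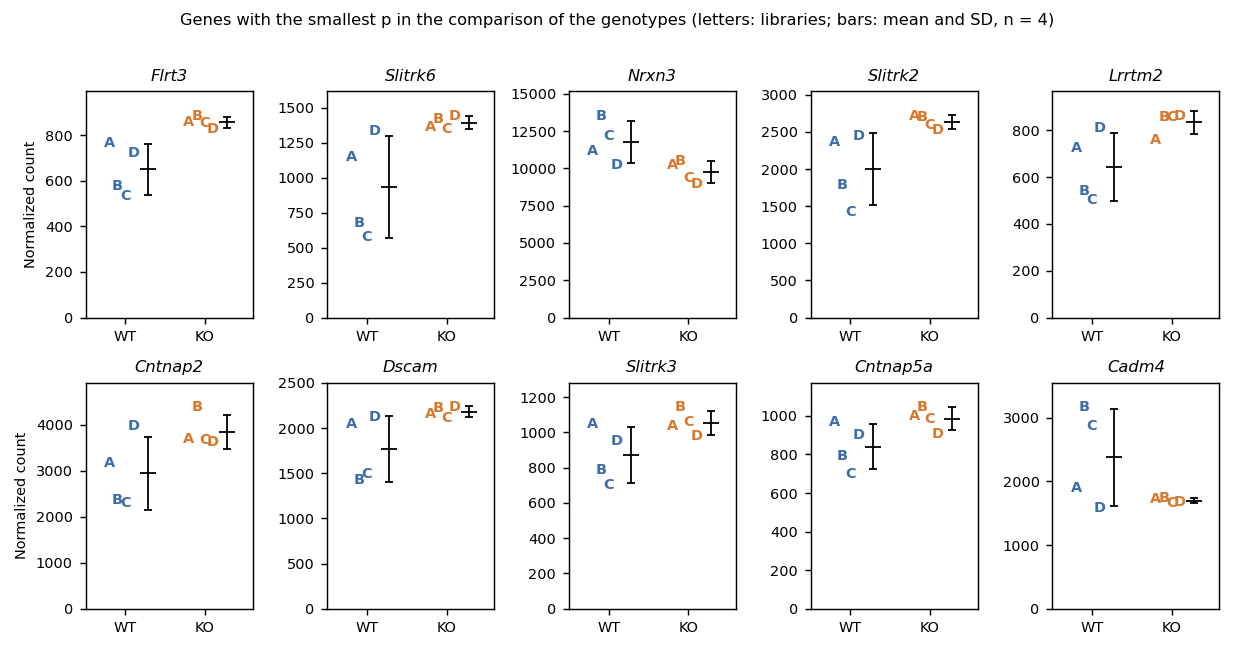
Normalized counts of the 10 genes with the smallest p, with a letter for each library (blue WT, orange KO) and a bar for the mean and SD of 4 libraries. In the 8 genes with a positive fold change WT B and WT C are the 2 lowest letters, in Nrxn3 and Cadm4 they are the 2 highest, and the KO letters are closer together than the WT letters in each panel.

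The contactins are Ig-domain proteins anchored to the membrane by a lipid, and the contactin-associated proteins (Caspr) are neurexin-like transmembrane partners of them. The 5 contactins had log2 fold changes from −0.06 (Cntn5) to 0.26 (Cntn3). Their most abundant gene, Cntn4, lay at 2586 ± 107 normalized counts in WT and 2624 ± 146 in KO (SD, n = 4), with 0.02 (−0.13 to 0.17). Cntn5, which together with Cntnap4 is known for placing arbors of direction-selective circuits, lay at 396 ± 28.3 and 379 ± 32.7, with −0.06 (−0.28 to 0.16), and Cntnap4 at 261 ± 65.8 and 269 ± 35.9, with 0.07 (−0.35 to 0.49). Cntnap4 turned to −0.25 (−0.53 to 0.03) with WT A and WT D only, where Cntn5 had −0.15 (−0.36 to 0.07). The adjusted p of the contactins was 0.337 to 0.874 in limma.

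Among the 7 contactin-associated genes, Cntnap2, which gathers potassium channels along axons, had the smallest p (ENSMUSG00000039419.18, chr6:45036291-47281147). It gave 3163, 2353, 2292 and 3965 normalized counts in WT A to D and 3683, 4384, 3656 and 3616 in KO A to D. WT D was above 3 of the KO libraries, and KO B stood above the rest. The log2 fold change was 0.41 (SE 0.17, 0.03 to 0.80, adjusted p = 0.301 in limma; exact permutation p = 0.114), and 0.11 (−0.12 to 0.34) with WT A and WT D only. Cntnap5a (ENSMUSG00000070695.5, chr1:115612486-116515053) gave 968, 791, 701 and 899 in WT A to D and 1001, 1047, 985 and 905 in KO A to D. KO D lay within the WT range, and the log2 fold change was 0.24 (SE 0.11, −0.01 to 0.48, adjusted p = 0.302 in limma; exact permutation p = 0.0571), against 0.08 (−0.09 to 0.24) with WT A and WT D only. Cntnap1, the Caspr gene of highest level per kilobase, lay at 3851 ± 185 in WT and 3570 ± 168 in KO, with −0.11 (−0.26 to 0.04). Cntnap5b had 0.17 (−0.16 to 0.49). The lowest genes were also the least certain, with −0.48 (−1.28 to 0.32) for Cntnap3 and −0.15 (−0.88 to 0.58) for Cntnap5c.

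Sidekicks and DSCAM proteins are homophilic Ig-domain molecules that match partners by layer or space neighbouring cells. Sdk1 lay at 1278 ± 169 normalized counts in WT and 1140 ± 103 in KO, with a log2 fold change of −0.16 (−0.40 to 0.08), and Sdk2 at 2016 ± 363 and 1845 ± 319, with −0.13 (−0.46 to 0.21; SD, n = 4). Dscam, which keeps amacrine cells of a type apart (ENSMUSG00000050272.11, chr16:96392040-96972145), gave 2046, 1421, 1487 and 2126 in WT A to D and 2157, 2223, 2109 and 2235 in KO A to D. WT D was above KO C, and the KO libraries were closely spaced, with a coefficient of variation of 2.70% against 20.7% in WT. The log2 fold change of Dscam was 0.32 (SE 0.14, 0.02 to 0.63, adjusted p = 0.301 in limma; exact permutation p = 0.0571), and 0.06 (−0.05 to 0.18) with WT A and WT D only. Dscaml1 had 0.18 (−0.17 to 0.53) with all WT libraries and −0.12 (−0.25 to 0.01) with WT A and WT D, a change of sign.

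The calsyntenins, cadherin-related proteins of the synaptic membrane, gave log2 fold changes of −0.22 (−0.48 to 0.05) for Clstn1, 0.05 (−0.24 to 0.33) for Clstn2 and 0.00 (−0.13 to 0.13) for Clstn3. Clstn1 lay at 53667, 63292, 69149 and 47067 normalized counts in WT A to D and 50721, 47281, 50901 and 49783 in KO A to D. WT B and WT C were the highest 2 of the 8 libraries, and with WT A and WT D only its fold change was −0.02 (−0.16 to 0.12). Clstn3 lay at 4495 ± 167 in WT and 4495 ± 97.2 in KO.

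Of the SynCAM genes, which encode Ig-domain adhesion molecules that pair across the synaptic cleft and between glia and axons, Cadm4 had the smallest p (ENSMUSG00000054793.9, chr7:24181425-24203964). It gave 1889, 3169, 2869 and 1581 normalized counts in WT A to D and 1719, 1739, 1658 and 1676 in KO A to D. WT D was under every KO library, WT A above each of them, and WT B and WT C far above. Its log2 fold change was −0.43 (SE 0.20, −0.88 to 0.03, adjusted p = 0.304 in limma; exact permutation p = 0.143), and −0.03 (−0.19 to 0.14) with WT A and WT D only. Cadm2 had −0.13 (−0.36 to 0.09) with all WT libraries and −0.24 (−0.38 to −0.10, adjusted p = 0.201 in limma) with WT A and WT D. Cadm1, known from photoreceptor synapses, had 0.18 (−0.03 to 0.38) and 0.02 (−0.09 to 0.12), and Cadm3, the most abundant of them per kilobase by WT mean, had 0.04 (−0.11 to 0.19). Summed per kilobase, the SynCAM level was 3954 to 4318 in the WT libraries and 3907 to 3951 in the KO libraries, without overlap but with a gap of a few units.

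The spread lay mostly within WT. The coefficient of variation was larger in WT than in KO for 35 of the 42 genes, as for 14771 of the 17636 genes tested, with medians of 16.7% and 6.59% for the set and 18.3% and 7.26% for all genes. WT B and WT C were both under WT A and WT D in 25 of the 42 genes, beside 35.8% of all genes, and in 4 (Nrxn3, Lrrtm1, Clstn1 and Cadm4) both were above, beside 35.1%. The mean of WT B and WT C was a median 80.1% of that of WT A and WT D over the set and 99.5% over all genes. The families differed in this respect, with medians of 65.5% for the SLITRK genes, 67.5% for the DSCAM pair and 102% for the calsyntenins, for example. Among the 10 genes described above, 8 had a positive fold change and WT B and WT C under WT A and WT D, and in Nrxn3 and Cadm4 both were reversed. These libraries are also those with little mitochondrial mRNA and much signal recognition particle RNA, and the part of that difference in the fold changes was not tested.

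**Figure D4:**
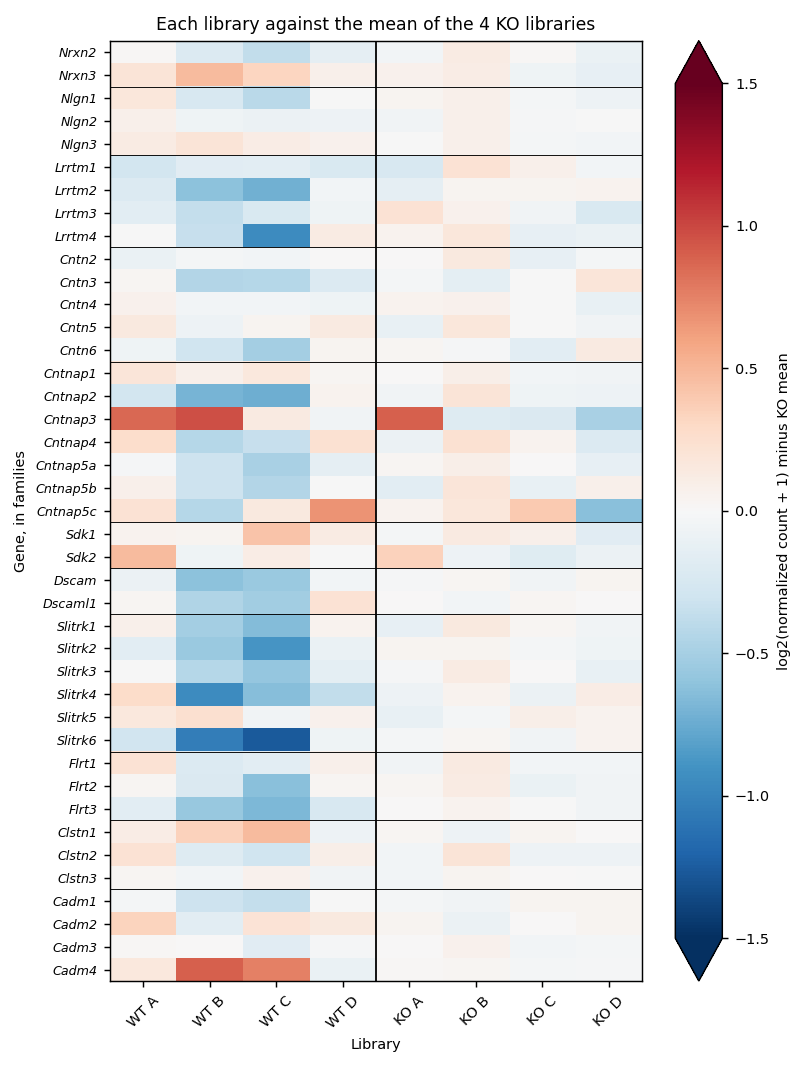
Colour map of log2(normalized count + 1) in each of the 8 libraries minus the mean of the 4 quadruple KO libraries, for 41 of the 42 genes in families divided by lines. Blue cells, below the KO mean, gather in WT B and WT C for most SLITRK, FLRT and DSCAM genes and Cntnap2, red cells in the same libraries for Clstn1, Cadm4 and Nrxn3, and the KO columns are pale except for a few genes such as Cntnap3.

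Fewer cells of a type and less RNA per cell cannot be told apart in these libraries of whole retina. Rod, cone, bipolar, amacrine, horizontal and ganglion cell markers were all present, and 0 of the 67 marker genes found in the table for 14 cell types and tissues were called. The summed markers of Mueller glia were 177383 to 184753 normalized counts in WT C and WT B and 126996 to 144650 in the other 6 libraries. Those of the retinal pigment epithelium were 6128 in WT D, 1952 to 3000 in WT A to C and 2237 to 3424 in KO. Lens markers summed to 57.3 to 1411 in WT, highest in WT B, and to 29.5 to 1096 in KO, highest in KO C. The 8 ganglion cell markers summed to 28652 to 31847 in WT and 23960 to 28642 in KO, and the 6 rod markers to 1251879 to 1667778 in WT and 1674060 to 1809594 in KO, both without overlap but with the nearest libraries almost touching. The 4 starburst amacrine cell markers overlapped, at 2334 to 2849 in WT and 2592 to 2934 in KO. The part of these differences in the values of the adhesion genes was not tested.

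Known partners of these molecules were read from the same fit. Of 49 extracellular partners and other synaptic adhesion genes, 0 were called, beside 0.437% of all genes, and at an unadjusted p under 0.05, 4 lay higher, beside 9.29%, and 6 lower, beside 7.28%. Their median log2 fold change was −0.07, and −0.03 with WT A and WT D only, where 0 were called. Every KO library was above every WT library in 4 genes, Cbln2, Igsf11, Nptn and Ntng2, beside 6.16% of all genes, and below in 2, Adgrl3 and Ptprs, beside 3.58%. Adgrl3, a latrophilin that binds FLRT3, lay at 4227 ± 441 normalized counts in WT and 3460 ± 201 in KO, with a log2 fold change of −0.29 (SE 0.09), and Ptprs, the receptor of SLITRK proteins, at 13853 ± 1328 and 11717 ± 127, with −0.24 (SE 0.08; SD, n = 4). Cbln2, which bridges neurexins to postsynaptic receptors, lay at 1249 ± 182 and 1479 ± 37.2, with 0.26 (SE 0.10). Igsf11, a homophilic adhesion protein, had 0.43 (SE 0.17), the neuroplastin gene Nptn 0.21 (SE 0.08) and the netrin-G gene Ntng2 0.09 (SE 0.06). Each of these 6 genes had an adjusted p of 0.301 or 0.357 in limma. Their exact permutation p was 0.0286, which any gene without overlap gets, so it only restates the rule by which they were named. Ncam1 had the highest level of this list, with 2156 per kilobase in WT and a log2 fold change of 0.33 (SE 0.16).

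Of 23 cytoplasmic partners and scaffolds, 0 were called, beside 0.437% of all genes, and at an unadjusted p under 0.05, 0 lay higher, beside 9.29%, and 5 lower, beside 7.28%. The median log2 fold change was −0.05, and −0.03 with WT A and WT D only, where 0 were called. Shank3, a postsynaptic scaffold, was the 1 gene of this list without overlap, in a direction found in 3.58% of all genes, with 1092, 1081, 1381 and 1102 normalized counts in WT A to D and 911, 970, 1008 and 957 in KO A to D, a log2 fold change of −0.27 (SE 0.09, adjusted p = 0.301 in limma). Nsf, the ATPase that recycles fusion complexes, had the highest level, with 1505 per kilobase in WT and −0.09 (SE 0.08).

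Several members lie in or around other genes, and whether the counting used strand was not stated, so reads of such pairs cannot be told apart with certainty. Lrrtm2 lies inside Ctnna1 on the opposite strand, which had 3223 ± 357 normalized counts in WT and 2984 ± 104 in KO and a log2 fold change of −0.11 (SE 0.09). Flrt3 lies inside Macrod2 on the opposite strand, with 684 ± 59.8 and 656 ± 46.0 and −0.06 (SE 0.09). The fold changes of both host genes were negative and those of Lrrtm2 and Flrt3 positive. Within Nrxn3 lie Gm48692 (81.4 ± 59.4 in WT and 80.1 ± 15.4 in KO) and Gm48700 (49.2 ± 26.6 and 42.6 ± 11.9) on the same strand. Within Cntnap2 lie Gm43869, Gm43872, Gm43874, Gm43879, Gm43882, Gm43885, Gm43889 and Rbpj-ps3, with means of 9.54 to 29.8 in WT and 5.88 to 21.6 in KO. Gm43869, Gm43882 and Gm43885 fell below the minimum mean and were not tested, and none of the others was called. Ackr1, on the same strand as Cadm3 and overlapping it, lay at 987 ± 149 in WT and 1138 ± 51.2 in KO. Cntnap1 overlaps Plekhh3 (681 ± 223 and 503 ± 12.1) and Ezh1 (2545 ± 130 and 2858 ± 174) on the opposite strand, and Clstn1 overlaps Pik3cd. Lrrtm1, Lrrtm3 and Flrt1 lie inside Ctnna2, Ctnna3 and Macrod1 on the opposite strand. None of these neighbours was called. No called gene lay within 1 Mb of any of the 42, and the nearest targeted genes were Tnr, 13.4 Mb from Cadm3, and Bcan, 14.9 Mb from Slitrk3.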

How the data were processed

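Retinae of adult mice gave total RNA for 4 WT and 4 KO samples, and libraries were made from 450 ng with a kit for directional total RNA. Per the labels, the authors trimmed reads with Trim Galore 0.6.7, aligned them with STAR 2.7.9a to GRCm39 and quantified genes with Salmon 1.5.2. The authors deposited normalized counts, which are estimated counts divided by the factors of DESeq2 1.32.0 in R 4.1.1. The annotation release and the use of strand in counting were not given in the sources used here. The authors' own mean, fold change and p-value columns were not used.

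Libraries were assigned to genotypes by their column names. Genes with a mean of at least 10 (17636) were put on the log2(normalized count + 1) scale and compared in R 4.3.3 by limma 3.58.1 without covariates, using lmFit followed by eBayes with a mean-variance trend, with Benjamini-Hochberg adjustment of p over all of them. Intervals are 95% intervals from limma. Two-sided exact permutation tests over the 70 splits of 4 against 4 libraries were made for single genes. Steps were tested on simulated data. Whole reads were not recovered, since 47.2% to 70.7% of the values under 12 lay within 0.1 of a whole step, so depth is an estimate from those steps and counting precision was not computed per gene. Exonic lengths and positions came from GENCODE M39 (GRCm39), which matched 17969 genes and all 42 members, and promoter sequences from RefSeq (GRCm38.p6). Summaries and plots used Python 3.11.15 with pandas 2.3.3, numpy 2.4.6, scipy 1.17.1 and matplotlib 3.10.9.

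The values of 1 member are not reported here, and it enters only the counts and medians over all 42. The 42 members, the partner and marker lists and the tests were chosen with earlier results of these data known. Members were described in full when called, when their genotypes did not overlap or when among the 10 with the smallest unadjusted p, together with the highest member of each family per kilobase. Partners were named when called, when not overlapping or when highest in level. Genes that overlap a described member, and called genes within 1 Mb of a member, were to be named with their values. The alternatives were median-ratio rescaling, quantile normalization, no filter, a minimum mean of 100, array weights, eBayes without trend, pseudocounts of 10 and 0.1, the library letter as a replicate block and each library left out, and, added after seeing the data, WT A and WT D alone against KO. Both genotypes use the letters A to D, which are not said to mark a shared animal, litter or day and did not serve as a block in the reported fit.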

Additional observations from a re-analysis of the deposited data

Results flagged for a closer look

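In 7 of the 84 groups of 4 libraries (42 genes in 2 genotypes), a library lay so far from the 3 others that its gap, as a share of the whole range of its group, exceeded Dixon's 95% limit, and chance flags about 1 in 20 groups. In 3 of the 7 it was KO B, the highest library for Cntnap2 (4384 normalized counts against 3616 to 3683), Flrt1 (901 against 788 to 800) and Clstn2 (1519 against 1254 to 1290). KO A was the lowest for Lrrtm2 (758 against 857 to 862) and the highest for Cntnap3 (52.9 against 19.6 to 24.2). WT A was the highest for Nlgn2 (6827 against 6127 to 6213) and Cntn4 (2746 against 2514 to 2546).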

How the results depend on the processing

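No member was called in any of the 19 settings run, and the lowest adjusted p of a member was 0.0767. The 10 described genes kept their sign in all 18 alternative settings. At an unadjusted p under 0.05 the fit gave 1 lower and 7 higher members. Array weights gave 6 lower and 6 higher, quantile normalization and eBayes without trend 4 higher each, and the fit without WT B and WT C (chosen after seeing the data) 3 higher. Leaving out each library in turn gave 0 to 4 lower and 1 to 12 higher members, with 1 higher without WT B, 2 without WT C or KO B, 3 without KO C, 4 without KO A or KO D and 12 without WT A, and 0 lower without KO C or KO D, 2 without WT A, 3 without KO A and 4 without WT D. The median log2 fold change of the members was 0.09 and became −0.02 with array weights and without WT B and WT C, and 0.03 to 0.18 with a library left out. The members' signs changed in 12 genes with array weights and in 11 without WT B and WT C, and 26 genes kept their sign throughout. Over all genes, 77 were called, 143 with array weights and 51 with the library letter as a replicate block.

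With the replicate block, 0 members were called and 1 lay lower and 5 higher at an unadjusted p under 0.05. The deviations of same-lettered WT and KO libraries correlated at −0.01, −0.11, 0.10 and 0.05 for A to D over 17636 genes. These values cannot decide on pairing, since WT B and WT C stood apart from all other libraries. The letters were not taken as pairs because they are not said to mark a shared animal, litter or day. A count model was not fitted because the values are not whole counts. The cause of the differences between settings was not tested. The 4 libraries per genotype and the spread of WT limit what could be detected.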
